A study of Mus musculus with 84 samples.

Results

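H3K4me1 was compared between adipocytes of obese and lean mice at sites away from promoters, where it marks enhancers. H3K4me1 peaks of all 22 H3K4me1 libraries of the series were merged into 70778 regions. Of these, 26064 lay more than 2000 bp from any protein-coding transcription start site (TSS) and touched no H3K4me3 peak of any library, and they are called distal sites here. A distal site was marked in a library when a peak of that library overlapped it, and 13808 of the 26064 sites were marked in at least 1 of the 5 libraries compared. The 5 libraries, out of 84 in the series, came from 3 HH mice and 2 CC_l mice. HH mice had eaten a high-fat diet for 25 weeks and CC_l mice chow, and both were 31 weeks old. All mice were male AdipoERCre x NuTRAP animals, on a background the labels spell C576BL6, that had been given tamoxifen before the diets began, so the lean controls carried the same alleles and treatment. In this model an adiponectin-driven, tamoxifen-inducible Cre tags adipocyte nuclei with biotin, and the tagged nuclei of frozen epididymal adipose tissue (epiAT) were pulled down and profiled by CUT&Tag, where an antibody against the histone mark recruits the transposase that cuts the DNA. Other groups served for comparison. HHC and CCC mice were HH and CC_l mice kept for 8 more weeks on chow, to 39 weeks of age. H mice ate a high-fat diet for 12 weeks, C mice were their chow-fed controls, and both were 18 weeks old, and HC and CC_s mice were 26-week-old counterparts, HC mice having had 8 weeks of chow after the high-fat diet.

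H3K4me1 is written by the MLL3 and MLL4 methyltransferases at enhancers, DNA elements that raise transcription of genes at a distance. It is present at enhancers that are primed as well as at those in use, and H3K27ac is added when an enhancer is active. In adipocytes, enhancers bound by PPARG, C/EBP, EBF and NF1 factors maintain the genes of lipid storage and insulin response. In macrophages, PU.1 opens most enhancers, and AP-1 and NF-kB act on them during inflammation. In obesity macrophages accumulate in epiAT, often around dying adipocytes.

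A site was called gained when all 3 HH libraries and no CC_l library marked it, and lost when both CC_l libraries and no HH library did. To show what such sites look like, 300-base windows centred on the peak maximum are given for 3 gained and 3 lost sites among those with the strongest peaks. In each direction the first 2 windows with a searched motif and the first without one were taken, passing over windows that touch an exon. Letters are from RefSeq (GRCm38.p6, the build of the files), 5′ to 3′, and capitals mark a motif on either strand. The gained site near Lmo2 has the NF-kB motif GGGNNTTCC, the one in 1110051M20Rik has GGAATG (TEAD) at 2 places and TTGGCA (NF1) once, and the one in Scarb2 has none of the 13 motifs searched. Of the lost windows, the one near Nmur2 holds GGAATG on the minus strand, the one near Wdr11 holds GGAATG on the minus strand and TTGGCA, and the one near Kbtbd8 holds no searched motif.
Gained, intergenic near Lmo2, chr2:103902399-103902698, + strand: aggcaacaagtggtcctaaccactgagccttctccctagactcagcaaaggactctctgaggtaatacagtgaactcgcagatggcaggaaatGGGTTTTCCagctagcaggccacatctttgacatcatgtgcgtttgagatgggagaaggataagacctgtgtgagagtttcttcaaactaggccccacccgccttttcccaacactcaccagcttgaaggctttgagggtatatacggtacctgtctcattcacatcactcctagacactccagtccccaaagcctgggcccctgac
Gained, intron of 1110051M20Rik, chr2:91330392-91330691, + strand: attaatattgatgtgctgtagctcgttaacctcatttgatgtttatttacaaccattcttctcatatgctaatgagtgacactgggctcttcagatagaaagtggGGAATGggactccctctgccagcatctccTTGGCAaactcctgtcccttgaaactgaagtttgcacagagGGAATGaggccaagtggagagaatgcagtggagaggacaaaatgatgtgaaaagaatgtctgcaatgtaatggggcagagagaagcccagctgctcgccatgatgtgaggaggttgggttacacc
Gained, intron of Scarb2, chr5:92467613-92467912, + strand: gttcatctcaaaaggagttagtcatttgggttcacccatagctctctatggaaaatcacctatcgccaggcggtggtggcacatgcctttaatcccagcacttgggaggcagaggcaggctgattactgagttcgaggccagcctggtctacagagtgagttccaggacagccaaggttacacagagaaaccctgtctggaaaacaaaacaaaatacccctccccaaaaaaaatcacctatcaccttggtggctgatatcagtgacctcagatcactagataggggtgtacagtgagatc
Lost, intergenic near Nmur2, chr11:56071652-56071951, + strand: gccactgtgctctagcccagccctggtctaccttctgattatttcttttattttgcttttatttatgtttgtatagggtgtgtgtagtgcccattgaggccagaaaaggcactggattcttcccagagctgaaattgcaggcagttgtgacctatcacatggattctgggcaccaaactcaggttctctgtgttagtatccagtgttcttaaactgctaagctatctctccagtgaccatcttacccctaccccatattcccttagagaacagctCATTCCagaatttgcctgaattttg
Lost, intergenic near Wdr11, chr7:129876540-129876839, + strand: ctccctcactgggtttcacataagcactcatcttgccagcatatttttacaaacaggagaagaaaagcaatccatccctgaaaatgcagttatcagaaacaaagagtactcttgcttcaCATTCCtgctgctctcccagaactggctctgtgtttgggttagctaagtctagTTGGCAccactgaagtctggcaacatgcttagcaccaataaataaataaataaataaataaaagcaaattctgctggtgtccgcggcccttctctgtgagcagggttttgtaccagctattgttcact
Lost, intergenic near Kbtbd8, chr6:94928923-94929222, + strand: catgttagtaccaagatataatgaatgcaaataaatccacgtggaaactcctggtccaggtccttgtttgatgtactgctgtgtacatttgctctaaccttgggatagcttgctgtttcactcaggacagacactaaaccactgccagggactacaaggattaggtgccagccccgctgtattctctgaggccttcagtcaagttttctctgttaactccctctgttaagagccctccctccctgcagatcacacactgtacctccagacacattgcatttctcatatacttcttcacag

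The 5 libraries held 33586 to 35941 H3K4me1 peaks each, with a mean coverage of 7.40 to 12.9 inside the peaks. Read totals are not part of peak lists, so depth per library is unknown, and absence of a peak means only that no peak was called. HH replicate 1 stood apart from the other 4 libraries. Its distal sites overlapped theirs with a Jaccard index (sites in both over sites in either) of 0.0541 to 0.141, whereas the other 4 libraries had 0.214 to 0.378 among themselves. In HH replicate 1, 66.5% of the 4165 marked distal sites were marked in none of the other 4 libraries, against 21.2% to 29.8% in those. The label adipocyte was checked against 15 adipocyte marker genes. In HH replicate 1, H3K4me1 lay at the promoters of 6 of the 15 and H3K27ac at 10, while each of the other 4 animals had H3K4me1 at 14 or 15 and H3K27ac at all 15. Of 17 endothelial marker genes, HH replicate 1 had H3K27ac at the promoters of 15, among them Pecam1, Kdr and Emcn, and the other animals at 1 to 6. The counts of called sites and their summaries are therefore given with and without it, and the calls without it compare 2 libraries with 2.

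**Figure D1:**
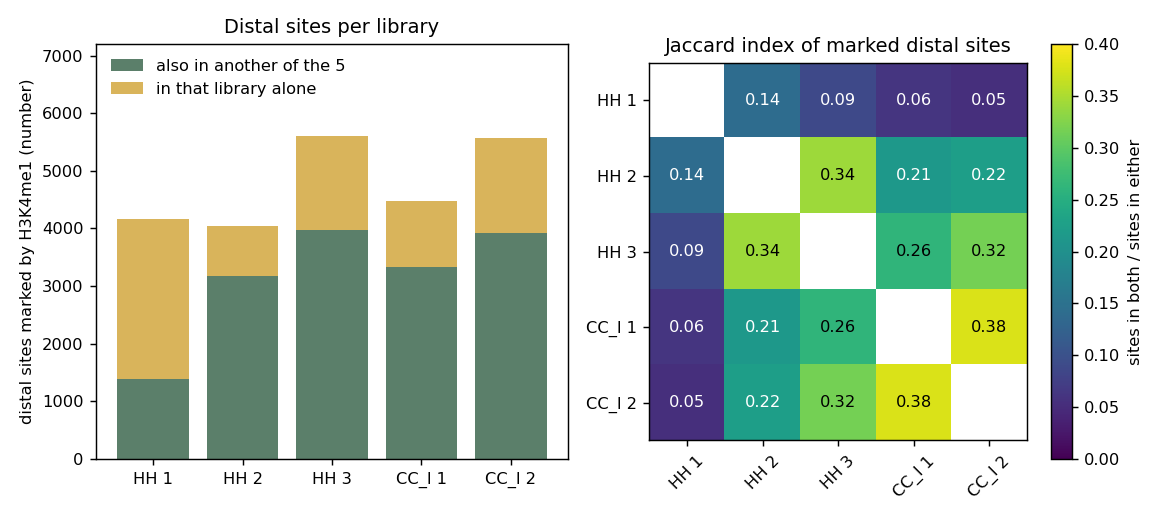
Left, number of distal sites marked by H3K4me1 in each library (bars), split into sites that another of the 5 libraries also marked and sites marked in that library alone. Right, Jaccard index of the marked distal sites for each pair of libraries. HH replicate 1 shares the fewest sites with every other library (0.0541 to 0.141).

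**Figure D2:**
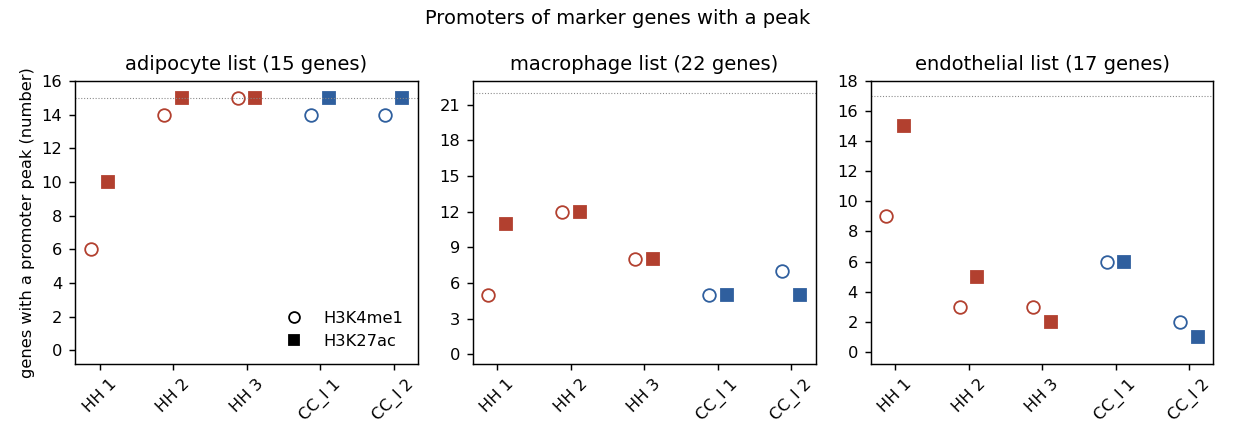
Number of marker genes with a peak at the promoter in each animal, for 15 adipocyte, 22 macrophage and 17 endothelial genes (dotted line, all genes of the list). Open circles are H3K4me1, filled squares H3K27ac, red HH and blue CC_l. HH replicate 1 is lowest for adipocyte and highest for endothelial genes, and the HH animals lie above CC_l for macrophage genes with H3K27ac.

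The number of distal sites marked did not separate the diets. HH libraries marked 4165, 4042 and 5604 distal sites and CC_l libraries 4470 and 5574, so the groups overlapped. The means were 4604 ± 868 (SD, n = 3) and 5022 ± 781 (SD, n = 2), a difference of -418 sites (two-sided exact permutation test, p = 0.6). Distal sites took 13.6% ± 2.04 (SD, n = 3) of the peaks in HH and 14.6% ± 2.52 (SD, n = 2) in CC_l, a difference of -0.985 percentage points (exact permutation test, p = 0.5). With 3 animals against 2 such a test cannot go below 0.1. The replicates are labelled as biological, and p-values measure the spread between these animals.

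At single sites, 214 of the 26064 were gained (0.821%) and 891 lost (3.42%). The 2 counts are not on an equal footing, since a gain had to be seen in 3 libraries and a loss in 2. Without HH replicate 1 the rule called 774 gained (2.97%) and 915 lost (3.51%). All 214 gained sites and all 891 lost sites are among those, as the rule requires, and HH replicate 1 marked 27.6% of the 774 and 2.62% of the 915. A further 216 sites were marked in all 5 libraries and are called stable here. Just outside the rule lay 1048 sites marked in 2 HH libraries and no CC_l library, 136 marked in 3 HH and 1 CC_l library, 715 marked in both CC_l libraries and 1 HH library, and 2799 marked in 1 CC_l library alone. No single site can reach a test threshold with 3 against 2 animals, so gained and lost describe these 5 libraries.

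The gained sites with the strongest peaks were ranked by the lowest within-library percentile of peak signal among the HH libraries, where 100 is the strongest peak of a library. First was a site of 7976 bp in an intron of Scarb2, which encodes a lysosomal membrane protein that carries glucocerebrosidase to lysosomes (chromosome 5, 92463952 to 92471927). Its peaks stood at percentiles 83.6, 81.3 and 75.01 in HH replicates 1, 2 and 3. Next was a site of 5514 bp between genes, 53159 bp from the TSS of Lmo2, an adaptor of transcription complexes in blood and endothelial cells (chromosome 2, 103899323 to 103904836), at percentiles 87.4, 75.4 and 66.8. The third overlapped an exon of Slc37a2, a sugar-phosphate transporter (chromosome 9, 37234486 to 37238125), at percentiles 76.1, 65.4 and 58.2. Sites over Sppl3, an intramembrane protease, and in an intron of 1110051M20Rik followed. The other 7 lay over Eps15l1, an endocytic adaptor, in introns of St6gal1, a sialyltransferase, Snx29, a sorting nexin, and Armc9, and between genes with Tmem64, Calml3 and Mctp2 as the nearest TSS. None of the 12 had a peak in either CC_l library, which the rule fixed.

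These 12 sites were also read in libraries that the rule did not use. All 12 were marked in at least 1 of 3 HHC libraries, 6 of them in all 3, and all 12 in at least 1 of 3 H libraries, while no C library marked any. Of HC libraries at least 1 marked 3 of the 12 sites, and of CC_s libraries at least 1 marked 1. The site near Lmo2 was marked in 3 of 3 HHC, 0 of 2 CCC, 2 of 3 H, 0 of 3 C, 2 of 3 HC and 0 of 3 CC_s libraries. No CCC library marked 8 of the 12, and both CCC libraries marked the Scarb2 and Snx29 sites. H3K27ac was present in at least 1 HH library at 11 of the 12 sites and in a CC_l library at 2, St6gal1 and Armc9. The Sppl3 site had no H3K27ac peak in HH.

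The strongest lost site lay between genes, 28959 bp from the TSS of Nmur2, a neuromedin U receptor (chromosome 11, 56069969 to 56073891). Its peaks stood at percentiles 83.4 and 82.4 in CC_l replicates 1 and 2. Second was a site 282899 bp from the TSS of Wdr11 (chromosome 7, 129874762 to 129878631), at percentiles 74.4 and 72.9. Next came sites 399386 bp from Rgma, a co-receptor for bone morphogenetic proteins, and 50027 bp from Dio3, the deiodinase that inactivates thyroid hormone (chromosome 12, 110223156 to 110229041). Others lay over Wwc2, a regulator of the Hippo pathway, in introns of Smoc1, a secreted matrix-associated protein, Fat3, an atypical cadherin, and Tenm4, a teneurin, over Txndc5, a protein disulphide isomerase, and Dapk1, a death-associated kinase, and far from Kbtbd8 and Glrx3. Of these 12, 6 lay between genes, 28959 to 399386 bp from the nearest TSS.

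The 12 lost sites had H3K4me1 in lean animals of every age. All were marked in at least 1 of 3 C, 1 of 3 CC_s and 1 of 2 CCC libraries, and 11 of the 12 in both CCC libraries. No H library marked 8 of them and no HHC library 5, namely those near Nmur2, Wdr11 and Rgma and those in Wwc2 and Fat3. Both CC_l libraries had H3K27ac at 10 of the 12 sites. In HH, 7 of the 12 had no H3K27ac peak and 5 had one in 1 library.

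Sites were linked to the nearest protein-coding gene within 20 kb of its body or TSS, which joined 19510 distal sites to 7220 genes. Gained sites were linked to 162 genes (2.24% of the linked genes) and lost sites to 539 (7.47%), and 14 genes had both. Without HH replicate 1 these were 528 genes (7.31%) and 553 (7.66%). The lists of gene functions below were set up with earlier results of these data known, and their counts are descriptions to be read against these shares.

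Among 21 adipogenic transcription factors, 10 had a linked site, and 2 of the 10 had lost sites, Ebf1 and Ebf2, with 3 sites each. These early B cell factors direct preadipocytes towards adipocytes, and Ebf2 is known for the brown and beige programme. Lost sites were 6 of the 73 distal sites linked to the list (8.22%), against 3.26% of all linked sites. Only sites marked in the 5 libraries could be called lost, and among those it was 6 of 51, against 637 of 10214. Genes with a lost site were 20% of the linked genes of the list, against 7.47% of all. Ebf1 had 12 distal sites marked in at least 1 of the 5 libraries. HH libraries marked 3, 6 and 6 of the 12 and CC_l libraries 10 and 11. Of 6 such sites of Ebf2, HH libraries marked 0, 0 and 1, and CC_l libraries 5 and 4. These counts include the lost sites, whose pattern the rule fixed. The lost Ebf1 sites lay in introns (chromosome 11, 44640548 to 44643176, 44950746 to 44952595 and 44956834 to 44958770), and so did 2 of the Ebf2 sites (chromosome 14, 67248636 to 67250693 and 67414641 to 67416431), the other (67370097 to 67373905) touching an exon. Stable sites stood among them, since 2 other sites of Ebf1 (44692749 to 44699992 and 44840153 to 44844101) were marked in all 5 libraries. At the 3 lost Ebf1 sites, in the order above, 0, 2 and 1 of 3 HH and 1, 2 and 0 of 2 CC_l libraries had H3K27ac. At each lost Ebf2 site it was in 0 of 3 HH and 1 of 2 CC_l libraries. No adipogenic factor had a gained site, and 1 of the 10 did without HH replicate 1. Over all linked genes these shares were 2.24% and 7.31%. Over the whole list, HH libraries marked 10, 20 and 20 of the 73 sites and CC_l libraries 29 and 31. Pparg, the master regulator of adipocyte differentiation, had 5 sites marked in the 5 libraries, of which HH libraries marked 1, 2 and 2 and CC_l libraries 1 and 4, so the groups overlapped there.

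Among 20 genes of lipogenesis and triglyceride synthesis, 10 had a linked site and 3 had a lost one, or 4 without HH replicate 1. Over all linked genes 7.47% had a lost site, or 7.66% without HH replicate 1. Acaca, acetyl-CoA carboxylase of fatty acid synthesis, lost an intronic site 7352 bp from a TSS (chromosome 11, 84202790 to 84206432). No HH or CC_l library had H3K27ac at this site. Of 4 distal sites of Acaca marked in the 5 libraries, HH libraries marked none and CC_l libraries 3 and 2. Elovl6, an elongase of long-chain fatty acids, lost an intronic site (chromosome 3, 129564634 to 129569682) that had H3K27ac in both CC_l libraries and in no HH library. Pcx, pyruvate carboxylase, lost an intronic site at chromosome 19, 4541299 to 4543698, which had H3K27ac in 1 of 3 HH and 1 of 2 CC_l libraries. HH libraries marked 2, 4 and 9 of the 28 distal sites of this list and CC_l libraries 15 and 13, the lost sites included. No gene of the list had a gained site, with or without HH replicate 1. Over all linked genes 2.24% had a gained site, or 7.31% without HH replicate 1, so a list of 10 linked genes says little about gains. Among 18 genes of the lipid droplet and lipolysis, 7 had a linked site. Only Abhd5, the co-activator of adipose triglyceride lipase, had a lost site, and none had a gained one.

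The list of insulin signalling and glucose uptake held called sites in both directions. Insr, the insulin receptor, had a lost site outside the gene, 7668 bp from its TSS (chromosome 8, 3287285 to 3289688), with H3K27ac in both CC_l libraries and no HH library. Grb10, an adaptor that restrains insulin receptor signalling, had 2 lost intronic sites (chromosome 11, 11977892 to 11980130 and 11982942 to 11986025). H3K27ac was there in 2 and 1 of 2 CC_l libraries and in no HH library. Slc2a1, the basal glucose transporter GLUT1, had a gained site 9088 bp from its TSS (chromosome 4, 119094889 to 119099623), at percentiles 57.2, 46.1 and 31.8 in HH, which all 3 HHC and 1 of 2 CCC libraries also marked. No HH or CC_l library had H3K27ac at the Slc2a1 site. Genes with a lost site were 2 of 15 and with a gained site 1 of 15 linked genes of this list (13.3% and 6.67%). Over all linked genes these shares were 7.47% and 2.24%.

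Of inflammatory signalling, 16 of 31 genes had a linked site, and among these 1 gene had a gained and 1 a lost site. Over all linked genes 2.24% had a gained and 7.47% a lost site, and 7.31% and 7.66% without HH replicate 1. Irf8, a transcription factor of macrophages and other myeloid cells, had a gained site of 8239 bp that overlapped the end of the gene and ran downstream (chromosome 8, 120756679 to 120764917), marked in 3 of 3 HHC and 0 of 2 CCC libraries. Tlr4, the receptor for lipopolysaccharide, had a lost intronic site (chromosome 4, 66869497 to 66871382) with weak peaks, at percentiles 1.17 and 15.2 in CC_l. Genes of the lysosome list had lost sites only by this rule, in Lamp2, Tfe3 and near Ctsl, 3 of 14 linked genes. Without HH replicate 1 there was 1 gene of the list with a gained site. Scarb2, which had the gained site ranked first above, was not on the list. Of the extracellular matrix list, Col15a1 had a gained site (chromosome 4, 47257650 to 47263635), and Col5a2 and Loxl2, a lysyl oxidase, had lost sites, among 21 linked genes. Sfrp2, a secreted modulator of Wnt signalling, had a lost site and Rora and Nfil3 of the circadian clock a lost and a gained one. Of the 16 linked genes of the Wnt pathway, 3 had a gained site and 1 a lost one without HH replicate 1, and then 2 genes each of the insulin and inflammatory lists had a gained site. Fatty acid uptake, adipokines, thermogenic regulators, AP-1 and ATF factors and the TGF-beta pathway had neither by the rule over all 5 libraries. Without HH replicate 1, adipokines, thermogenic regulators and the TGF-beta pathway had 1 gene each with a gained site.

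Most genes with a called site had 1 such site in that direction. Gained sites were most frequent, at 2 each, for Lyn, Gm20388, Rapgef5 and Vwa8, the first 4 of 7 genes with 2 or more. Lyn is a Src-family kinase of myeloid cells and B cells. One of its gained sites (chromosome 4, 3742518 to 3745409) stood at percentiles 66.1, 62.8 and 44.5 in HH and had H3K27ac in 2 of 3 HH and 0 of 2 CC_l libraries. The other (3768179 to 3772803) was weaker, at percentiles 39.6, 2.37 and 15.9. It had H3K27ac in 0 of 3 HH libraries, and 0 of 3 HHC libraries marked it. The weaker gained sites of Rapgef5 and Vwa8 had lowest percentiles of 1.39 and 0.834. Gm20388 is a gene model that spans many other genes (chromosome 8, 119910841 to 124345722), so its link does not single out one of them, and it had 2 lost sites too. Lost sites were most frequent for Fat3 and Slit3, with 4 each, and Aff3 and Negr1, with 3 each, and 82 genes had 2 or more. Without HH replicate 1, 56 genes had 2 or more gained sites and 84 genes had 2 or more lost sites. Then 9 genes had 3 or more gained sites and 15 had 3 or more lost sites. Slit3 is a secreted guidance ligand and Negr1 a neuronal cell adhesion molecule. Of 24 distal sites linked to Slit3, 17 were marked in the 5 libraries, 4 of them lost and none gained. All 4 genes span long stretches, which hold many sites.

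Of the gained sites 117 (54.7%) lay within introns, 34 (15.9%) overlapped an exon and 63 (29.4%) were intergenic. For lost sites these shares were 42.3%, 17.8% and 39.8%, and for all 26064 distal sites 47.5%, 14.6% and 37.9%. Without HH replicate 1 gained sites were 47.3% intronic and 34.9% intergenic, close to all sites. The median distance to a TSS was 45483 bp for gained and 44674 bp for lost sites, against 37139 bp for all. Sites over 100 kb from any TSS made up 20.6% of gained, 29.9% of lost and 22.2% of all sites, and 29.7% of lost sites without HH replicate 1. The median width was 3694 bp for gained, 2397 bp for lost, 4771 bp for stable and 2067 bp for all sites. In the calls without HH replicate 1 it was 2836 bp for gained and 2413 bp for lost sites, and their median distances to a TSS were 40401 bp and 44883 bp. On the X chromosome 1 site was gained and 30 lost out of 448, and without HH replicate 1 these were 11 and 30. The X chromosome held 1.72% of all distal sites, 0.467% of gained and 3.37% of lost sites. Over all chromosomes 0.821% of sites were gained and 3.42% lost, and without HH replicate 1 2.97% and 3.51%. At gained sites the median percentile was 48.02, 34.9 and 24.7 in HH replicates 1, 2 and 3, and at lost sites 24.0 and 27.1 in the CC_l libraries, against 38.5 to 52.7 at stable sites and 25.4 to 27.9 over all distal sites marked in a library.

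Macrophage marker genes were examined as a sign of other cells in these adipocyte libraries. Of 38 distal sites linked to 22 macrophage marker genes, HH libraries marked 8, 9 and 8 and CC_l libraries 1 and 1. H3K27ac lay at the promoters of 11, 12 and 8 of the 22 genes in HH and of 5 and 5 in CC_l. The groups did not overlap on either of these 2 measures of macrophage genes. For all linked genes the H3K27ac promoter shares were 69.7%, 63.8% and 56.8% in HH and 66.5% and 59.1% in CC_l. H3K4me1 lay at 5, 12 and 8 of the 22 macrophage promoters in HH and 5 and 7 in CC_l, which overlapped. Csf1r, the receptor for macrophage colony-stimulating factor, and Tyrobp, a myeloid signalling adaptor, had promoter H3K27ac in all 3 HH animals and in neither CC_l animal. For promoter H3K4me1 this held for Lcp1, an actin-bundling protein of leukocytes, and the reverse for Laptm5, a lysosomal protein of leukocytes. Adgre1 and Trem2 had promoter H3K27ac in HH replicate 2 only. Itgam, Itgax, Mrc1, Cd163, Lyz2, Ctss, Cx3cr1, Cybb and Ms4a7 had promoter H3K27ac in none of the 5 animals. Runx1, a factor of blood cells, had 7 distal sites marked in the 5 libraries, of which HH libraries marked 3, 4 and 4 and CC_l libraries 0 and 1. No site linked to a macrophage marker gene was called gained. Without HH replicate 1, 3 sites of 2 macrophage genes were. They made up 7.89% of the linked sites and 13.3% of the linked genes of the list, against 3.05% and 7.31% over all linked genes. Endothelial genes had 43 linked sites, of which HH libraries marked 14, 5 and 6 and CC_l libraries 4 and 2, also without overlap. The part of other cell types in the gained sites was not tested.

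H3K4me1 at the called sites was then read in animals the calls had not used. Of the 214 gained sites, HHC libraries marked 56.1%, 50% and 75.7% and CCC libraries 7.94% and 12.1%. The H libraries of the shorter diet marked 51.4%, 50.9% and 7.94%, and the C libraries 1.87%, 0% and 1.40%. In both comparisons every library of mice with a history of high-fat diet lay above every control, although H replicate 3 was far below the other H libraries. HC libraries marked 2.80%, 10.7% and 35.98% and CC_s libraries 0.467%, 0% and 5.14%, which overlapped. For the 774 sites gained without HH replicate 1 the HHC values were 27.4%, 47.9% and 39.1%, the CCC values 8.66% and 19.5%, the H values 30.2%, 33.98% and 13.3%, and the C values 1.29%, 0.129% and 1.29%, again without overlap. The groups also differed in how much they marked anywhere. HHC libraries marked 15.7%, 33.3% and 25.0% of the 13808 sites marked in the 5 libraries and CCC libraries 18.2% and 37.6%, H libraries 10.5% to 13.9% and C libraries 7.21% to 7.84%.

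Of the 891 lost sites, HHC libraries marked 3.59%, 42.6% and 10.2% and CCC libraries 37.6% and 82.5%, so HHC replicate 2 lay above CCC replicate 1. H libraries marked 4.04%, 3.70% and 6.73% and C libraries 16.3%, 22.3% and 16.5%, with no overlap, while C libraries marked fewer distal sites in all. HC libraries marked 7.97%, 7.18% and 4.15% and CC_s libraries 8.08%, 19.6% and 47.8%. Without HH replicate 1 in the calls the HHC values were 4.37%, 43.3% and 11.5% and the CCC values 37.5% and 82.3%. At least 1 HHC library marked 193 of the 214 gained sites and 430 of the 891 lost sites, and at least 1 H library marked 155 and 118. At least 1 CCC library marked 38 gained and 752 lost sites, and at least 1 C library 6 and 333. With 3 animals against 2 or 3, an exact permutation test of such shares could not go below 0.1, so they are given as values.

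**Figure D3:**
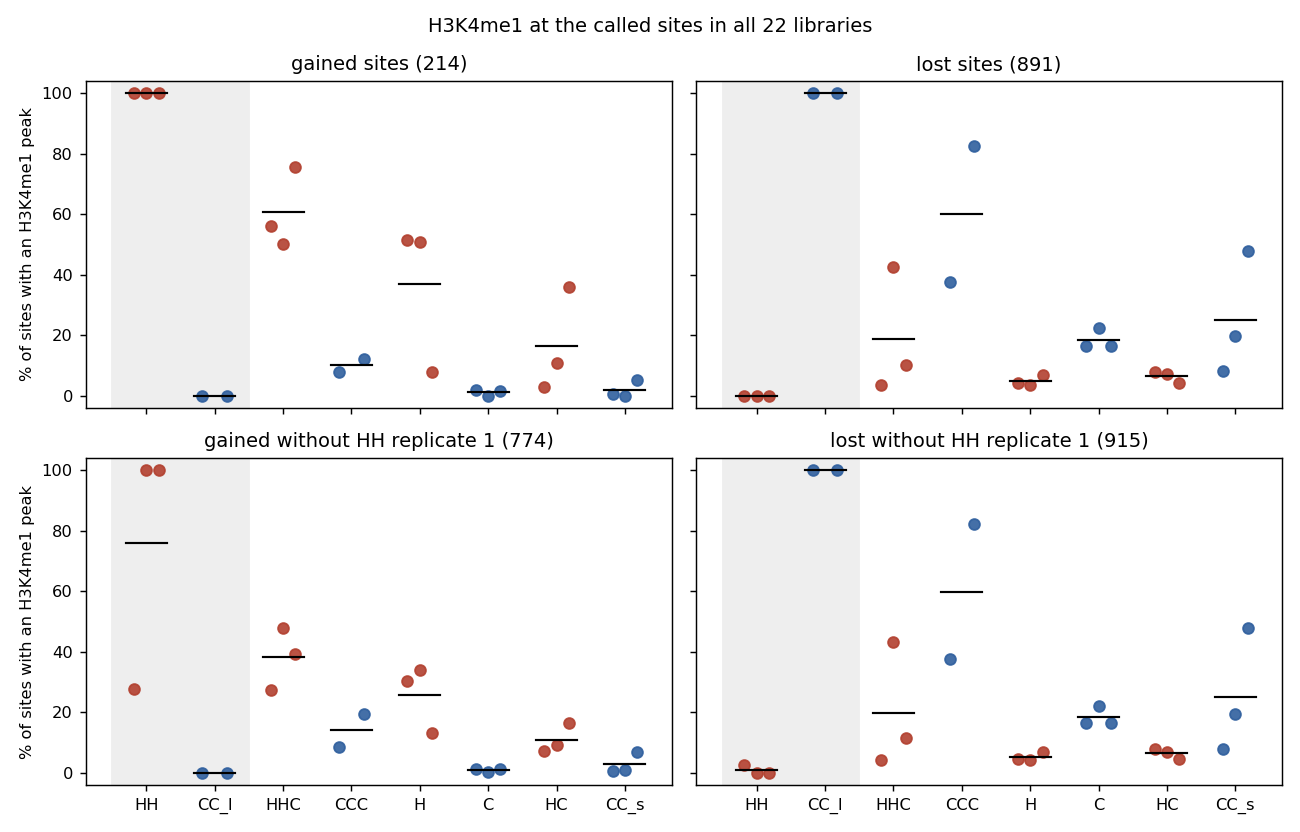
Share of gained (left) and lost (right) distal sites with an H3K4me1 peak in each of the 22 H3K4me1 libraries, with calls from all 5 libraries (top) and without HH replicate 1 (bottom). Points are libraries, lines group means, red mice with high-fat diet at any time, blue controls, and the grey band holds the libraries that made the calls. For gained sites each HHC library lies above each CCC library and each H library above each C library.

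H3K27ac, the mark of active enhancers, was read at the same sites in HH and CC_l. Of the gained sites, 55.6%, 24.8% and 11.2% had an H3K27ac peak in HH replicates 1, 2 and 3, and 8.88% and 1.40% in CC_l. HH replicate 1 was the highest and HH replicate 3 close to the higher control. Of the 774 sites gained without HH replicate 1, HH libraries had H3K27ac at 23.6%, 26.5% and 25.6% and CC_l libraries at 5.30% and 2.71%, and the groups were well apart. Of the lost sites 2.81%, 8.53% and 12.7% had H3K27ac in HH, and 37.7% and 37.6% in CC_l. These differences of 25.4 percentage points at gained sites and -29.6 at lost sites carry no test, because the sites were chosen by the same division of the mice, and the H3K27ac libraries came from those mice too. At stable sites the shares were 40.7%, 42.1% and 38.4% in HH and 38.4% and 26.4% in CC_l, and over the 13808 sites 13.3% to 15.5% and 13.98% to 15.7%. At least 1 of 3 HH libraries had H3K27ac at 146 of the 214 gained sites and all 3 at 3 of them, while at least 1 of 2 CC_l libraries had it at 21. Of the 891 lost sites, at least 1 CC_l library had H3K27ac at 455 and both at 216, while at least 1 HH library had it at 172. With 3 libraries against 2 these counts are not on an equal footing, and HH replicate 1 had the highest share at gained sites.

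**Figure D4:**
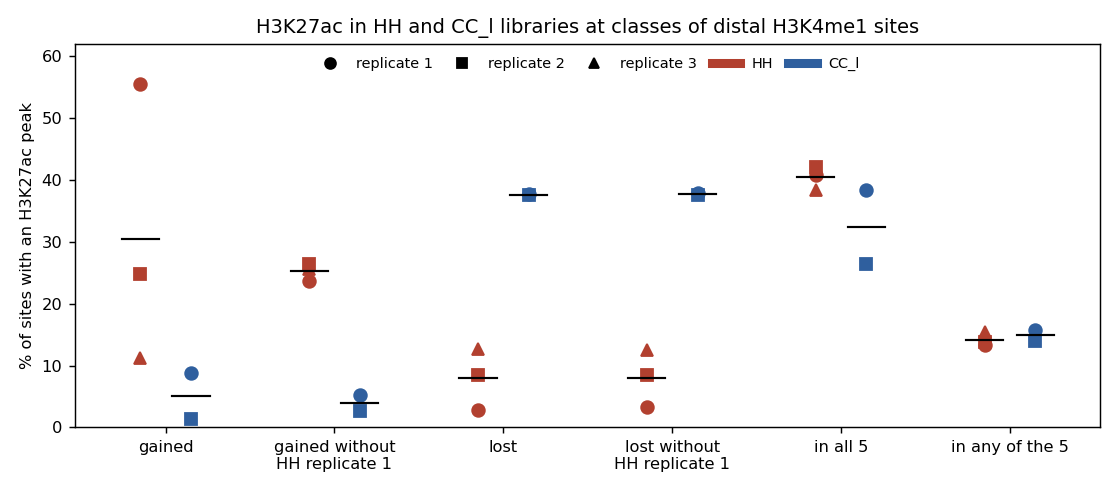
Share of distal H3K4me1 sites with an H3K27ac peak in each HH (red) and CC_l (blue) library, by class of site. Symbols give the replicate and black lines the group means. HH lies above CC_l at gained sites and below it at lost sites, and the groups overlap over the sites marked in any of the 5 libraries.

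H3K27me3, the polycomb mark of silenced chromatin, was rare at all of these sites. Of the gained sites 6.54% and 3.27% had it in HH replicates 2 and 3, the HH animals profiled, and 5.61% and 3.74% in CC_l replicates 1 and 2. Of the lost sites 5.72% and 3.82% had it in HH and 3.82% and 1.23% in CC_l. H3K27ac lay at the promoters of 82.7%, 77.2% and 69.1% of the 162 genes with a gained site in HH and of 75.9% and 69.8% in CC_l. For the 539 genes with a lost site these values were 66.2%, 63.6% and 58.1% in HH and 69.4% and 65.9% in CC_l, and for all 7220 linked genes 69.7%, 63.8% and 56.8% in HH and 66.5% and 59.1% in CC_l. The groups overlapped for genes with a gained site. For genes with a lost site HH replicate 1 lay between the CC_l animals, and HH replicates 2 and 3 lay below both. With the calls made without HH replicate 1, HH replicates 2 and 3 had H3K27ac at 70.6% and 63.4% and CC_l at 68.4% and 61.9% of 528 promoters of genes with a gained site. For 553 genes with a lost site these values were 64.2% and 58.6% in HH and 69.8% and 66.0% in CC_l.

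The DNA under the peaks was searched for 13 short motifs of factors known in adipocytes and immune cells, on both strands of the 300-base windows. Gained and lost sites stood on opposite sides of the background for several of them, where background is the share among the 13808 sites marked in the 5 libraries. The PU.1 motif GAGGAAGT was in 8.88% of gained, 1.46% of lost and 3.61% of background windows. The NF-kB motif GGGNNTTCC was in 6.54%, 2.02% and 4.29%, and the AP-1 motif TGANTCA in 16.4%, 9.54% and 12.7%. In the other direction, the NF1 motif TTGGCA was in 15.4% of gained, 31.6% of lost and 24.8% of background windows, the C/EBP motif TTGCNNAA in 14.02%, 22.4% and 18.7%, and the palindrome of the glucocorticoid receptor in 0.467%, 2.58% and 1.46%. The 216 stable sites had PU.1 in 3.70%, NF1 in 23.6% and AP-1 in 13.9% of windows, and NF-kB in 6.48%, a share close to that of gained sites.

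With HH replicate 1 left out of both the calls and the windows, part of this pattern was gone on the gained side. Of the 774 gained windows, 4.13% had PU.1, 4.78% NF-kB, 24.5% NF1 and 19.6% C/EBP, against 2.77%, 3.94%, 27.2% and 20.6% of the 11040 sites marked in the other 4 libraries. AP-1 remained higher, at 19.6% against 12.9%, and the glucocorticoid receptor palindrome lower, at 0.646% (5 windows) against 1.73%. The lost side hardly moved, with NF1 in 32.1%, C/EBP in 22.5%, AP-1 in 9.84%, PU.1 in 1.53% and the glucocorticoid receptor palindrome in 2.84% of 915 windows. Over all 5 libraries, EBF (CCCNNGGG) was in 11.2% of gained, 12.3% of lost and 10.1% of background windows, and TEAD (GGAATG) in 19.6%, 19.8% and 18.6%. RUNX (TGTGGTT) was in 6.07%, 6.397% and 7.64%, IRF in 3.27%, 1.80% and 3.27%, and KLF (GGGTGTGG) in 3.74%, 2.81% and 3.22%. The direct repeat of AGGNCA spaced by 1 base, which PPARG binds with RXR, was in 1.40%, 1.80% and 1.26%, and the NF1 palindrome was in no called window. Windows of gained sites had a median GC content of 49.3%, of lost sites 46.7% and of the background 47.7%. These are letter matches with no test, and they do not show that a factor was bound.

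**Figure D5:**
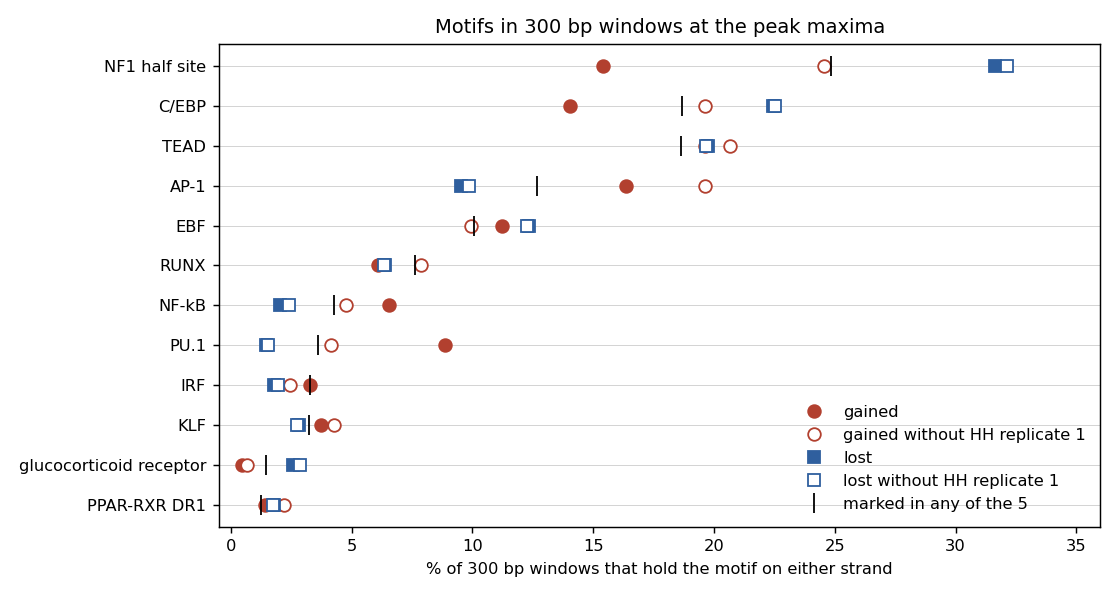
Share of 300 bp windows that hold each motif on either strand, for gained (red circles) and lost (blue squares) sites, filled for calls over all 5 libraries and open without HH replicate 1, with the sites marked in any of the 5 libraries as black ticks. PU.1 is at 8.88% of gained windows over all 5 libraries and 4.13% without HH replicate 1, and NF1 is above 31% of lost windows in both.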

How the data were processed

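CUT&Tag was measured in adipocyte nuclei of single mice, labelled as biological replicates. According to the methods and the submitters' processing notes, the authors trimmed reads with Trim Galore 0.6.6, aligned them with Bowtie2 2.4.4 to mm10 (GRCm38), sorted them with SAMtools 1.13, made coverage tracks with bedtools 2.30, called peaks per library with SEACR 1.3 (stringent, threshold 0.01) and removed blacklisted regions. The deposited columns hold each peak's total and highest coverage signal, not scaled between libraries, so only presence of a peak and ranks within a library were compared, and the study's count model could not be run. Each library keeps a fixed top share of its signal blocks, and a deeper library has less error in its calls, but depth is not in the files.

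Promoters came from 41438 TSS of 21851 protein-coding genes (GENCODE basic annotation, GRCm38). An overlap of 1 bp counted. Scripts used Python 3.11.15, numpy 2.4.6 and scipy 1.17.1 and were tested on simulated data. The 12 named sites per direction had the highest lowest percentile in the marking libraries, with chromosome 18 left out, and the 4 genes per direction the most called sites, and called sites of listed genes could be named. There were 14 function and 7 marker lists. The members and lists were chosen with earlier results of these data known. The alternatives covered equal peak numbers, a stricter threshold, the overlap, the promoter window, the site set, a relaxed call rule and each replicate left out. For the 4 H3K4me3 libraries whose treatment label disagreed with the title, the title was used, and here they served only to exclude promoters.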

Additional observations from a re-analysis of the deposited data

How the results depend on the processing

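The counts of called sites depended on which libraries, which peaks and which call rule were used. With each HH or CC_l replicate left out in turn, the 214 gained sites became 272 (without CC_l replicate 1) to 774 (without HH replicate 1) and the 891 lost sites 915 (without HH replicate 1) to 2550 (without CC_l replicate 1), since each call then rests on fewer libraries. Gained sites were 355 without HH replicate 2 and 561 without HH replicate 3, and lost sites 1489 without HH replicate 3 and 2031 without CC_l replicate 2. The gained share of called sites, 19.4%, ranged from 9.64% (without CC_l replicate 1) to 45.8% (without HH replicate 1). The relaxed call rule (at least 2 of 3 HH libraries for a gain, at most 1 for a loss) gave 1262 gained and 1606 lost, a gained share of 44.003%. With the stronger 50% of each library's peaks there were 22 gained and 208 lost sites, a share of 9.57%, and 17 of 50 named sites kept their full call, against 49 with equal peak numbers.

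Distal sites per library, HH minus CC_l, ranged from -970 to 134 sites with a replicate left out and was 2 with the stronger 50% of peaks. The distal share of peaks ranged from -2.77 to 0.798 percentage points and was 0.126 with the stronger 50% of peaks. The exact p of these values ranged from 0.333 to 1. H3K27ac at gained sites ranged from 16.7 to 28.4 percentage points. At lost sites it ranged from -30.4 to -17.9, and was -22.7 with equal peak numbers and -18.99 with the stronger 50%. H3K27me3 had no stable direction, with -0.685 to 1.43 points at gained sites, -1.01 with equal peak numbers and 4.55 with the stronger 50%, and -1.45 to 2.84 at lost sites. H3K4me1 in HHC minus CCC ranged from 24.1 (without HH replicate 1) to 55.8 points at gained sites, was 40.6 with equal peak numbers, and ranged from -63.7 to -18.8 at lost sites. In H minus C it ranged from 24.9 to 50.1 at gained and from -14.6 to -5.37 at lost sites, where equal peak numbers gave -16.8. The cause of these shifts was not tested. A minimum overlap of 200 bp, a promoter window of 5000 bp and sites from HH and CC_l alone kept all 13 results.

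In a replicate block of replicates 1 and 2, 561 sites were gained and 1489 lost, a gained share of 27.4%, and the other 8 results with a blocked value kept their direction. Deviations from the group means correlated by 0.0787 for HH and CC_l replicate 1 and 0.00210 for replicate 2. For HH replicate 3 and CC_l replicate 2, of unequal number, the value was 0.0858. The deviations of the 2 CC_l libraries mirror each other, so these values cannot tell whether equal numbers pair the libraries. H3K27me3 in HH and CC_l shares 1 number only, so no blocked value was possible. The motif, location, gene list and promoter values without HH replicate 1 were added after the data had been seen.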

Other observations

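The 12-week cohort gives a separate reading of how many distal sites were marked after a high-fat diet. H libraries marked 1612 to 3078 distal sites and C libraries 1014 to 1141, with no overlap, a difference of 1345 sites, whereas HH minus CC_l was -418. H libraries also held more H3K4me1 peaks, 20091 to 27243 against 18476 to 18762 in C. HH libraries held 33586 to 35723 and CC_l libraries 34805 to 35941. Distal sites took 8.21% to 11.9% of the peaks in H and 5.52% to 6.30% in C. In distal sites marked, high-fat diet minus control, the cohorts differed by -1764 sites (exact permutation test within cohorts, 200 splits, p = 0.085). For the distal share of peaks they differed by -5.20 percentage points (exact permutation test, p = 0.055), so neither passed 0.05.

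The lists of mural, lymphocyte, mesothelial and stromal progenitor markers held 1 called site in all, a lost intronic site of Myh11, the smooth muscle myosin (chromosome 16, 14251894 to 14255038). No mesothelial site was marked in any of the 5 H3K4me1 libraries. Stromal progenitor genes had H3K27ac at 10, 6 and 5 of 12 promoters in HH and 7 and 5 in CC_l, and lymphocyte genes at 8, 4 and 3 of 17 in HH and 3 and 2 in CC_l, with HH replicate 1 highest in both.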
